A study of Homo sapiens with 6 samples.

Results

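The genes described here encode intermediate filament proteins, the ropes of coiled-coil protein that give a cell and its nucleus mechanical strength. They were chosen by gene name: the keratin genes KRT7, KRT8, KRT18, KRT19 and KRT80, the mesenchymal filament genes VIM and NES, and the lamin genes LMNA, LMNB1 and LMNB2. All 10 were among the 17153 genes with values. The RNA came from SNU449, a cultured line derived from a human liver cell cancer, 48 h after transfection with an siRNA against the oxytocin receptor gene OXTR (siOXTR, 3 libraries) or with a control siRNA (siControl, 3 libraries). All libraries come from this single line, and the labels name no other treatment. No label states that the libraries of a group are separate cultures, and the spread that p-values rest on may therefore be technical. The labels give neither the sequence of the siRNA nor the number of siRNAs used, so an effect of OXTR loss and one of the siRNA itself cannot be told apart. In RNA from a bulk culture, more cells with a transcript and more transcript per cell cannot be told apart either.

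Keratins are built from obligate pairs, in which a type I chain joins a type II chain. KRT8 (type II) and KRT18 (type I) form the pair that liver parenchymal cells and their tumours keep, whereas KRT7 (type II) and KRT19 (type I) are markers of bile duct cells. KRT80 is a type II keratin found in several epithelia. VIM encodes vimentin, the filament protein of mesenchymal cells, and NES encodes nestin, which copolymerises with vimentin in progenitor cells. The lamins line the inside of the nuclear envelope: LMNA gives the A-type lamins A and C by alternative splicing, and LMNB1 and LMNB2 give the B-type lamins, which keep a lipid anchor in the membrane.

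The values were FPKM, by definition fragments scaled to gene length and to all mapped fragments, so levels may be compared between genes. As such they are not corrected for a shift in composition between libraries. Their sum ranged over 424168 to 429456 in siOXTR and over 412464 to 415902 in siControl, and no library stood apart within its group (Pearson r of 0.997 to 0.998 across genes within groups, against 0.922 to 0.923 between groups; genes are not independent replicates). OXTR, the target of the siRNA, was at 6.03, 6.11 and 6.14 FPKM in siOXTR and at 26.5, 26.6 and 24.6 FPKM in siControl. The cell type label was compared with marker genes. Among 10 marker genes of hepatocytes the files held 8, and these summed to between 0.93 and 1.00 FPKM in siOXTR and to between 1.53 and 1.79 FPKM in siControl, with APOB listed at 0 in all 6 libraries and ALB at a mean of 0.107 FPKM in siOXTR and 0.0867 FPKM in siControl. SERPINA1, the highest of the 8 by its mean over all libraries, was at 0.27, 0.21 and 0.29 FPKM in siOXTR. In siControl it was at 0.55, 1.10 and 1.08 FPKM. The hepatocyte markers were thus low in every library, and none passed the filter on low values. Leukocyte and endothelial markers also summed to low levels, at most 0.81 and 0.24 FPKM in siOXTR and at most 1.77 and 0.32 FPKM in siControl. Among the 4 biliary or progenitor markers, KRT7 and SOX9 passed the filter on low values, and KRT19 and EPCAM did not.

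The filament genes fell into opposite groups after OXTR knockdown. VIM, KRT80, KRT18, KRT8 and LMNA rose, LMNB1, LMNB2 and KRT7 fell, NES did not pass the test, and KRT19 was too low to be tested. Of the 9 genes tested, which had at least 1 FPKM in at least 3 libraries, 8 passed an adjusted p of 0.05 in limma, 5 upward and 3 downward. This share reads against a background in which 82.5% of the 11655 genes tested passed, 37.7% upward and 44.8% downward, so a call by itself sets none of these genes apart. No library of one group lay within the range of the other for 8 of the 9, against 83.0% of all genes tested. The median log2 change was 0.18 over these 9 genes and -0.06 over all genes tested, and the median size of the change was 0.55 and 0.37.

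**Figure D1:**
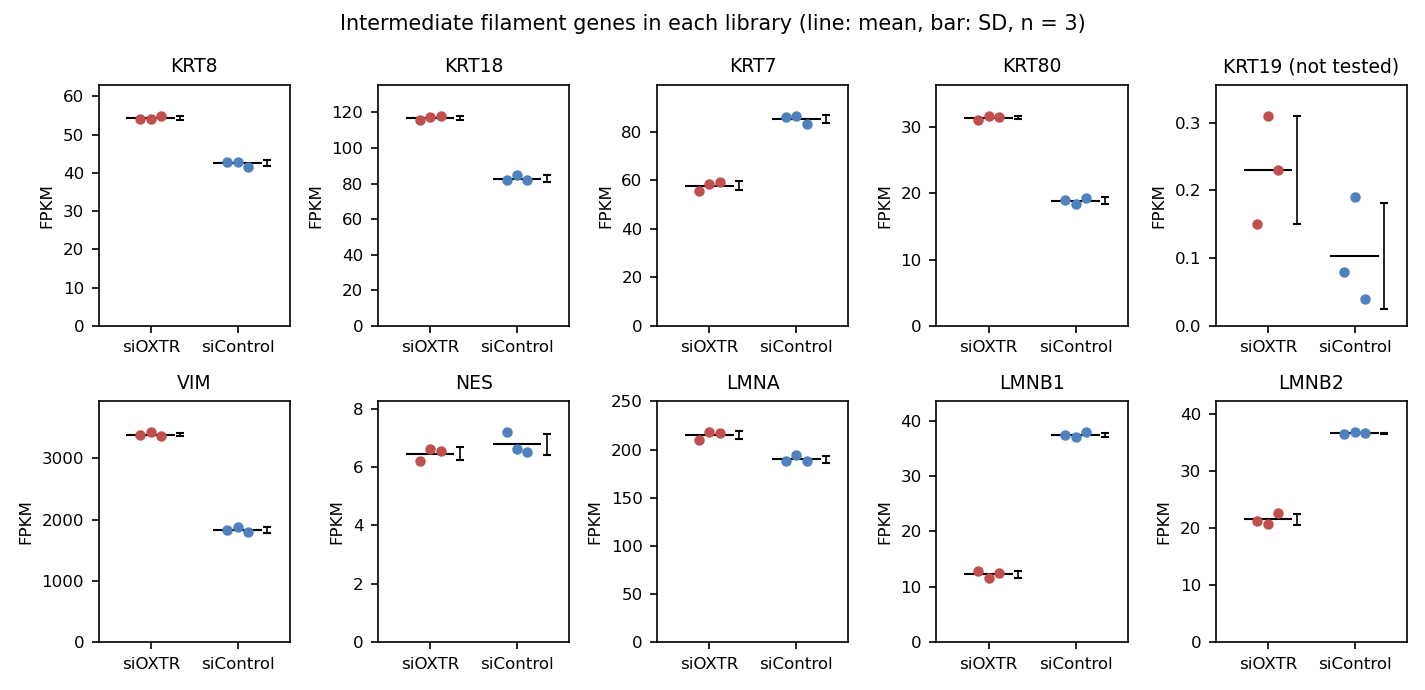
FPKM of each filament gene in each library (dots), siOXTR left of siControl, with the mean as a line and the SD as a bar, n = 3; each panel has its own axis, which starts at 0. The siOXTR dots lie above all siControl dots for KRT8, KRT18, KRT80, VIM and LMNA, below them for KRT7, LMNB1 and LMNB2, and overlap them for NES and KRT19.

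Vimentin was the most abundant filament transcript by far. VIM (NCBI gene ID 7431, chromosome 10) was at 3378, 3424 and 3369 FPKM in the siOXTR libraries and at 1831, 1880 and 1793 FPKM in the siControl libraries. The lowest siOXTR library thus lay well above the highest siControl library. The means were 3390 ± 29.6 FPKM in siOXTR and 1835 ± 43.6 FPKM in siControl (SD, n = 3 each), a 1.85-fold higher level (log2 change 0.89, SE 0.03, limma adjusted p = 4.17e-10). VIM ranked 3 among all genes by mean FPKM in siOXTR and 8 in siControl, and 6.27% of the genes tested had a larger log2 change. Of 4 markers of stellate cells or fibroblasts, mesenchymal cells rich in vimentin, 3 were in the files, and these summed to between 3.82 and 4.3 FPKM in siOXTR and to between 5.41 and 5.73 FPKM in siControl. Nearly all of this sum was COL1A1, at a mean of 3.94 FPKM in siOXTR and 5.54 FPKM in siControl, while DES and PDGFRB were at 0.15 FPKM or less in every library. Their part in the VIM level was not tested. VIM alone held 86.6% to 87.0% of the summed FPKM of the 10 filament genes in siOXTR and 78.4% to 78.8% in siControl. The 10 genes together took 0.905% to 0.929% of all FPKM in siOXTR and 0.555% to 0.577% in siControl. The exons of VIM overlap 2 genes on the opposite strand in GENCODE release 29, VIM-AS1 by 641 bases and AL133415.1 by 619 bases. The sources do not state whether reads were counted by strand, and without strand the reads of that stretch cannot be told apart.

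NES (NCBI gene ID 10763, chromosome 1), nestin, did not follow vimentin. Its level was 6.20, 6.63 and 6.55 FPKM in siOXTR and 7.18, 6.63 and 6.52 FPKM in siControl, and the groups overlapped. The log2 change was -0.06 (SE 0.05, 95% interval -0.18 to 0.06, limma adjusted p = 0.306). The sign of this change depends on the scaling, since it was 0.026 after quantile scaling.

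The keratin pair of liver cells rose in both partners. KRT18 (NCBI gene ID 3875, chromosome 12) was at 116, 117 and 118 FPKM in siOXTR and at 81.9, 84.8 and 81.8 FPKM in siControl, with no overlap, and was 1.41-fold higher (log2 change 0.49, SE 0.03, limma adjusted p = 2.12e-08). KRT8 (NCBI gene ID 3856, chromosome 12) was at 54.0, 54.0 and 54.9 FPKM in siOXTR and at 43.0, 43.0 and 41.6 FPKM in siControl. These groups did not overlap either, and the rise was smaller, 1.28-fold (log2 change 0.35, SE 0.03, limma adjusted p = 5.64e-07). Both genes have many processed copies in the genome, 52 annotated pseudogenes named after KRT8 and 68 after KRT18 in GENCODE release 29, none of which has a row in the files. The sources do not state how reads shared with these copies were assigned, so the levels of both genes are uncertain to that extent. KRT8 and KRT18 also lie beside each other on opposite strands, and their annotated exons overlap by 525 bases.

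The type II partner did not keep pace with the type I partner. The ratio of KRT8 to KRT18 was 0.467, 0.461 and 0.465 in the siOXTR libraries and 0.525, 0.506 and 0.509 in the siControl libraries. It was lower in every siOXTR library, at 0.464 ± 0.00334 in siOXTR and 0.513 ± 0.01 in siControl (SD, n = 3 each), a log2 difference of -0.14. As background, in mice an excess of keratin 8 over keratin 18 favours the keratin aggregates known as Mallory-Denk bodies. Protein was not measured here, and the KRT8 transcript level was below that of KRT18 in every library. The exact two-sided permutation test gave p = 0.1, the smallest that 3 against 3 libraries can give. All 4 ratios compared here had this exact permutation p, so adjustment over them leaves p = 0.1 and none can pass the threshold.

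KRT7 and KRT80, both type II, moved in opposite directions. KRT7 (NCBI gene ID 3855, chromosome 12) was at 55.8, 58.4 and 59.4 FPKM in siOXTR and at 86.1, 86.5 and 83.4 FPKM in siControl. It was 1.47-fold lower, with no overlap (log2 change -0.55, SE 0.03, limma adjusted p = 3.62e-08). The annotated exons of KRT7 overlap opposite-strand genes, KRT7-AS by 282 bases and KRT87P by 32 bases, so the limit of strand given for VIM holds here too. KRT80 (NCBI gene ID 144501, chromosome 12) was at 31.1, 31.6 and 31.4 FPKM in siOXTR and at 19.0, 18.3 and 19.3 FPKM in siControl. It was 1.66-fold higher, again with no overlap (log2 change 0.70, SE 0.03, limma adjusted p = 7.57e-09), and 9.76% of the genes tested had a larger log2 change. KRT7 had been the most abundant of the 5 keratins in siControl, at 85.3 ± 1.68 FPKM beside 82.9 ± 1.72 FPKM for KRT18, values that differ by little more than their SD. In siOXTR the order was KRT18 at 117 ± 1.30 FPKM, KRT7 at 57.9 ± 1.89 FPKM and KRT8 at 54.3 ± 0.509 FPKM (SD, n = 3 each).

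The falls and rises of the type II keratins nearly cancelled in their sum. KRT7, KRT8 and KRT80 together were at 144 ± 2.51 FPKM in siOXTR and at 147 ± 2.08 FPKM in siControl, and the libraries of the groups overlapped. The type I sum of KRT18 and KRT19, which was nearly all KRT18, was at 117 ± 1.35 FPKM in siOXTR and at 83.0 ± 1.79 FPKM in siControl (SD, n = 3 each). The ratio of this type II sum to this type I sum was accordingly 1.22, 1.22 and 1.23 in siOXTR and 1.81, 1.74 and 1.76 in siControl. Its log2 difference was -0.53 with no overlap (exact permutation p = 0.1). KRT10, another type I keratin, lies outside these sums, at means of 25.0 FPKM in siOXTR and 23.6 FPKM in siControl. Counting it would lower the ratio in both groups. KRT19 (NCBI gene ID 3880, chromosome 17) was listed at 0.15, 0.31 and 0.23 FPKM in siOXTR and at 0.08, 0.19 and 0.04 FPKM in siControl. These groups overlapped at a level far under the filter, and no fold is given. KRT7 was thus abundant in these cells without KRT19, its fellow marker of bile duct cells.

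**Figure D2:**
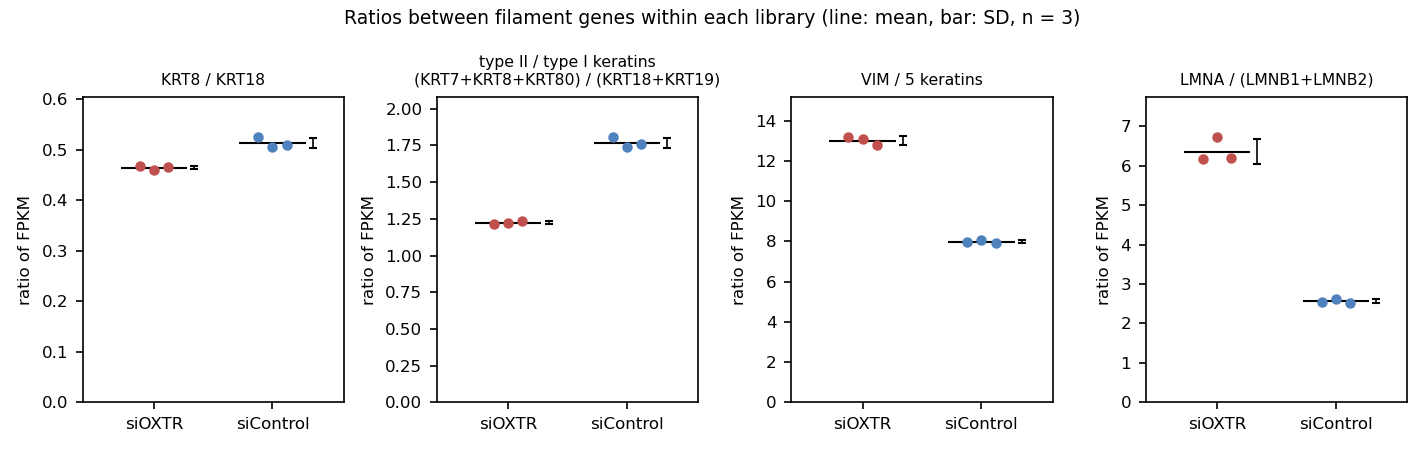
Ratios of FPKM within each library (dots), siOXTR left of siControl, with mean and SD, n = 3; axes start at 0. KRT8 to KRT18, and the type II sum (KRT7, KRT8, KRT80) to the type I sum (KRT18, KRT19), were lower in all siOXTR libraries. VIM to the 5 keratins and LMNA to the B-type lamins were higher in all of them. KRT10 is in none of these ratios.

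Vimentin outgrew the keratins. The summed level of the 5 keratins was 256, 262 and 264 FPKM in siOXTR and 230, 233 and 226 FPKM in siControl, 1.13-fold higher with no overlap. VIM exceeded this sum by a factor of 13.2, 13.1 and 12.8 in siOXTR and of 7.96, 8.08 and 7.93 in siControl. The log2 difference of this ratio was 0.70, in a line whose vimentin transcript was more abundant than its keratins in every library.

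The other keratin genes were mostly silent. Of 24 in the files, 19 stayed under the filter with no value over 0.36 FPKM, and 5 were tested. KRT10, a type I keratin of the epidermis, was the single abundant one, at 24.9, 24.9 and 25.2 FPKM in siOXTR and 25.2, 22.4 and 23.2 FPKM in siControl. Its groups overlapped and it did not pass (log2 change 0.08, limma adjusted p = 0.0950), although it did with median-ratio scaling and without siControl replicate 1. KRT34, a type I hair keratin, was at 1.5, 1.27 and 1.5 FPKM in siOXTR and at 0.07, 0.03 and 0 FPKM in siControl. KRT20, a type I keratin of the gut lining, was at 1.73, 1.91 and 1.90 FPKM in siOXTR and at 0.09, 0.29 and 0.27 FPKM in siControl. Both were tested through their siOXTR libraries alone, so they had to differ, and a fold against values so near 0 is imprecise. KRT15, a type I keratin of basal epithelial cells, rose to 2.19 ± 0.168 FPKM in siOXTR, against 1.18 ± 0.186 FPKM in siControl (log2 change 0.55, limma adjusted p = 9.27e-05). KRT222, a keratin-like gene, fell to 1.46 ± 0.176 FPKM in siOXTR, against 2.83 ± 0.104 FPKM in siControl (log2 change -0.64, limma adjusted p = 9.91e-06). The plot of keratin levels shows that KRT8, KRT18, KRT7, KRT80 and KRT10 lay far above all the others in both groups.

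**Figure D3:**
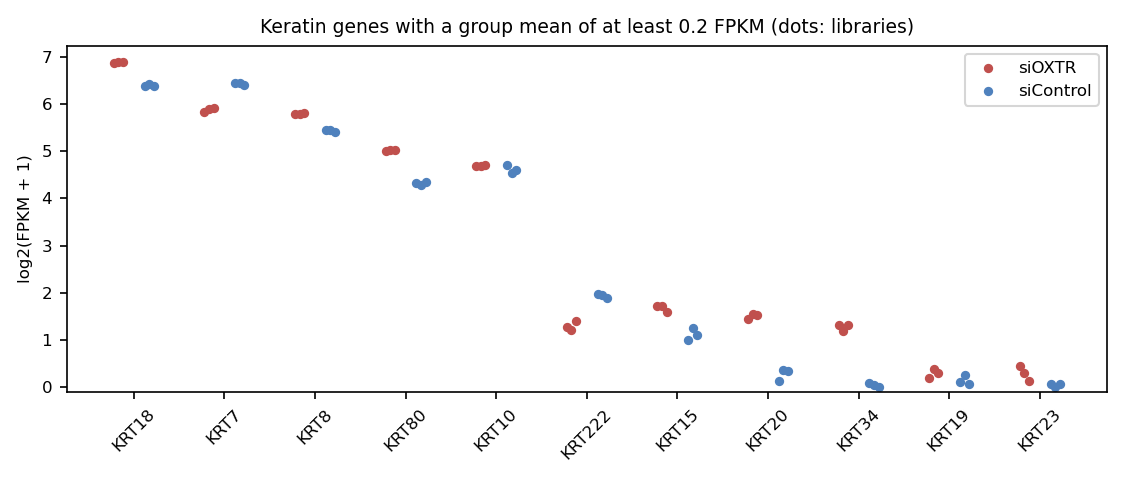
Level of each keratin gene with a group mean of at least 0.2 FPKM, as log2(FPKM + 1), in each library (dots), siOXTR left of siControl within each gene. The 5 keratins at the left lie between about 4 and 7 on this scale, and KRT20 and KRT34 lie over 1 in siOXTR and near 0 in siControl.

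Of 11 further cytoplasmic filament genes listed, 9 were in the files and 5 were tested. Of these, PRPH, the peripherin gene, passed the filter through its siOXTR libraries alone and so had to differ. Of the other 4 genes, 2 rose and 2 fell, with a median log2 change of -0.04. Of all genes tested, 37.7% passed upward and 44.8% downward, so a call alone sets none of the 4 apart. SYNM, which encodes synemin, a partner that assembles with vimentin or desmin, was at 5.58, 5.80 and 5.95 FPKM in siOXTR and at 11.0, 11.3 and 11.2 FPKM in siControl. It fell 1.93-fold while VIM rose (log2 change -0.84, SE 0.04, limma adjusted p = 2.07e-08). INA, which encodes the neuronal filament protein internexin alpha, also fell (log2 change -0.38, limma adjusted p = 2.31e-05). SYNC, which encodes syncoilin, a filament protein of muscle, rose to 6.02 ± 0.0802 FPKM in siOXTR, against 2.07 ± 0.288 FPKM in siControl (log2 change 1.20, limma adjusted p = 7.17e-08). PRPH was at 1.95 ± 0.176 FPKM in siOXTR and 0.427 ± 0.0929 FPKM in siControl. The desmin gene DES was at most a trace, with a mean of 0.0800 FPKM in siOXTR and 0.0200 FPKM in siControl.

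The B-type lamins fell while the A-type lamin rose slightly. LMNB1 (NCBI gene ID 4001, chromosome 5) was at 12.8, 11.6 and 12.4 FPKM in siOXTR and at 37.3, 37.1 and 37.9 FPKM in siControl, with no overlap. At 12.3 ± 0.617 FPKM in siOXTR and 37.4 ± 0.396 FPKM in siControl (SD, n = 3 each) it was 3.05-fold lower, the largest change among the filament genes chosen (log2 change -1.53, SE 0.04, limma adjusted p = 1.04e-10). Of all genes tested, 1.96% had a more negative log2 change. LMNB2 (NCBI gene ID 84823, chromosome 19) was at 21.3, 20.8 and 22.7 FPKM in siOXTR and at 36.6, 36.8 and 36.6 FPKM in siControl. It was 1.70-fold lower, again with no overlap (log2 change -0.74, SE 0.04, limma adjusted p = 1.32e-08). The B-type lamins, at 37.4 ± 0.396 FPKM for LMNB1 and 36.7 ± 0.114 FPKM for LMNB2, had been near each other in siControl, whereas in siOXTR LMNB2 exceeded LMNB1 in every library.

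LMNA (NCBI gene ID 4000, chromosome 1) was at 210, 218 and 217 FPKM in siOXTR and at 188, 194 and 188 FPKM in siControl. The rise was 1.13-fold, small but free of overlap (log2 change 0.18, SE 0.03, limma adjusted p = 7.36e-05). A gene-level value cannot tell lamin A from lamin C. LMNA exceeded the summed B-type lamins by a factor of 6.16, 6.72 and 6.18 in siOXTR and of 2.54, 2.62 and 2.52 in siControl. On the log2 scale this ratio differed by 1.31, the largest difference of the 4 ratios compared (exact permutation p = 0.1). The summed lamin level was 249 ± 4.16 FPKM in siOXTR and 264 ± 3.34 FPKM in siControl (SD, n = 3 each).

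**Figure D4:**
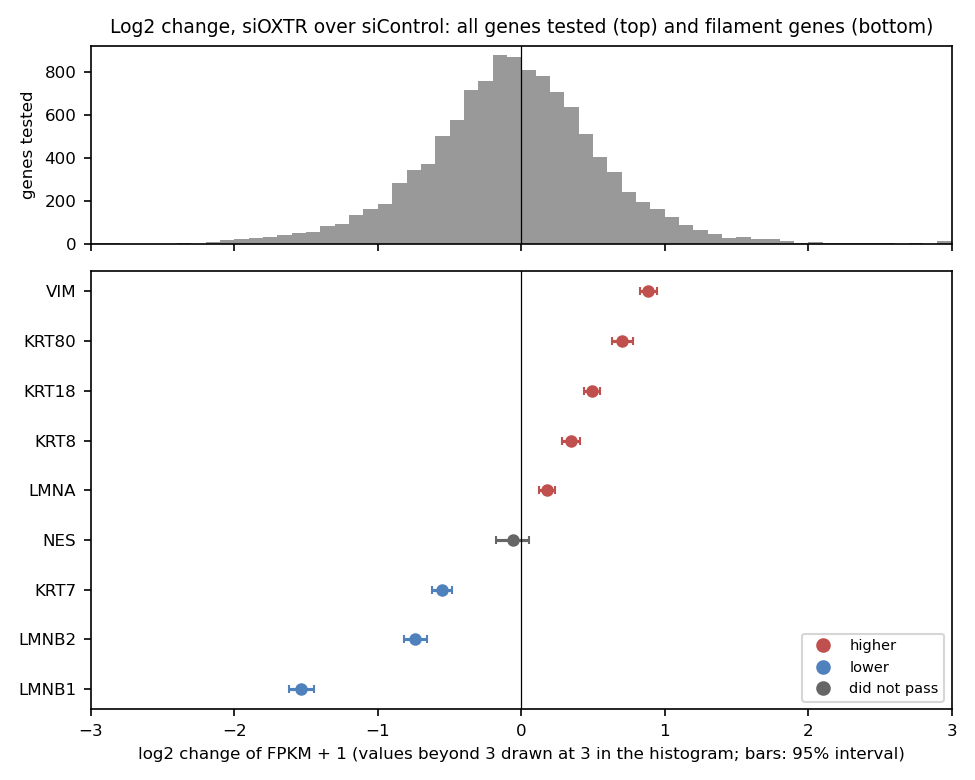
Top, histogram of the log2 change (siOXTR over siControl, of FPKM + 1) of all 11655 genes tested; bottom, the 9 filament genes tested with their 95% interval. VIM at 0.89 and LMNB1 at -1.53 mark the ends, and the interval of NES spans 0.

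The start regions of LMNB1, LMNB2 and VIM are shown because these genes carry the largest lamin and vimentin changes. RefSeq (GRCh38.p14) windows from 250 bases before to 50 bases after an annotated start were searched for 8 motifs on both strands, with matches in capitals. A window was matched by symbol for 6 of the 10 genes, and which start these cells use was not measured.
LMNB1, chr5:126776886-126777185, plus strand: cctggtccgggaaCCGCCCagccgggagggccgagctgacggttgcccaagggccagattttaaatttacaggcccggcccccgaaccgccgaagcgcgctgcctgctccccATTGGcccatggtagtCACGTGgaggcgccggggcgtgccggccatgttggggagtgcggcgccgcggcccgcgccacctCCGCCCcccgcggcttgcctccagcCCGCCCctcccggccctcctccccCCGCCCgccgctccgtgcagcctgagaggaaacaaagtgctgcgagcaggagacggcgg
LMNB2, chr19:2456910-2457209, minus strand: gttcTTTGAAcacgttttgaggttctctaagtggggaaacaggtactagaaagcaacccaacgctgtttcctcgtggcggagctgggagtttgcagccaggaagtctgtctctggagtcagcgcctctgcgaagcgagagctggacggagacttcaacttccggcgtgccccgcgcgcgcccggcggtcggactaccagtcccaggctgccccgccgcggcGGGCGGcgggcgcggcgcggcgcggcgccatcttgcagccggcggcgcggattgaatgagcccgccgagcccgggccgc
VIM, chr10:17227991-17228290, plus strand: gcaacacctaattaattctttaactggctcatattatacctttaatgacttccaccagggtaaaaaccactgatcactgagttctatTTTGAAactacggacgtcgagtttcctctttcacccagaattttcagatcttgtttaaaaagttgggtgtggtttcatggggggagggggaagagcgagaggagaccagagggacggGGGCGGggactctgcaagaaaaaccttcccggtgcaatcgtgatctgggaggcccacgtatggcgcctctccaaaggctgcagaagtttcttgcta
The LMNB1 window held 4 GC boxes (GGGCGG), a motif present in 45% of all 35116 windows. It also held 1 CCAAT box (CCAAT, in 34.6% of windows) and 1 E box (CACGTG, in 7.26%). The other LMNB1 window of the table held no match. The LMNB2 window held 1 GC box and 1 CHR motif (TTTGAA, in 15.2% of windows), and the VIM window held the same pair. Among the windows not shown, each LMNA window and the NES window held a GC box. The KRT8 window and the other LMNB1 window did not. The GC box was in all 3 windows shown, and its part in any change was not tested. None of these 3 windows held the letters of the TATA box (TATAAA, in 11.5%), of the E2F motif (TTTNGCGC, in 1.79%), of the AP-1 motif (TGANTCA, in 7.71%) or of the ATF4-C/EBP motif (TGATGNAA, in 3.62%). No motif overlapped another in these windows, and a match of letters does not show that a factor binds.

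Genes of the nuclear envelope proteins that bind lamins, or connect them to chromatin and cytoskeleton, were tested in 18 cases, 21 of 22 listed being in the files. Of these 13 fell and 4 rose, so that 72.2% passed downward and 22.2% upward, against 44.8% and 37.7% of all genes tested. Their median log2 change was -0.47, against -0.06 over all genes tested. This list, like the others, was chosen with earlier results of these data known, so the contrast only describes the genes listed. LBR, which encodes the lamin B receptor, an inner membrane protein that holds B-type lamins and heterochromatin, was at 17.2, 17.3 and 17.3 FPKM in siOXTR and at 69.2, 72.4 and 71.3 FPKM in siControl. It was 4.12-fold lower, more than either B-type lamin gene (log2 change -1.98, SE 0.03, limma adjusted p = 2.30e-12). TOR1AIP1, which encodes the lamina-associated protein LAP1, fell 2.45-fold (log2 change -1.23, limma adjusted p = 1.04e-10). TMPO, which encodes the LAP2 proteins, fell to 44.0 ± 0.951 FPKM in siOXTR, against 80.7 ± 1.14 FPKM in siControl (log2 change -0.86, limma adjusted p = 4.98e-10). SUN2, which links lamins through the envelope to the cytoskeleton, fell 2.27-fold (log2 change -1.11, limma adjusted p = 8.66e-10). The 4 that rose, SYNE1, ANKLE2, LEMD2 and TMEM43, did so by 0.28 or less on the log2 scale, and TMEM43 lost its call with the replicate block and when any single library but siOXTR replicate 3 was left out. EMD, the emerin gene, counts among the 13 with a log2 change of -0.08 (limma adjusted p = 0.0398), and its groups overlapped. The EMD call is lost with no filter, with median-ratio scaling, with the replicate block and without siOXTR replicate 1, siOXTR replicate 2, siControl replicate 1 or siControl replicate 2.

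Genes listed as lamin processing enzymes, which include the prelamin A binder NARF, went both ways. All 6 listed were tested, 5 fell and 1 rose, with a median log2 change of -0.63; of all genes tested 44.8% fell and 37.7% rose. ZMPSTE24, the protease that cuts prelamin A into lamin A, was at 15.7, 16.1 and 16.1 FPKM in siOXTR and at 33.0, 35.2 and 34.0 FPKM in siControl. It fell 2.13-fold (log2 change -1.04, SE 0.03, limma adjusted p = 6.43e-10) while its substrate gene LMNA rose. ICMT, which methylates the lipid-modified end of lamins, fell 1.91-fold (log2 change -0.89, limma adjusted p = 1.92e-09). NARF, whose product binds prelamin A, had a log2 change of -0.38 (limma adjusted p = 4.78e-07). FNTA, the shared subunit of the farnesyl and geranylgeranyl transferases, rose to 76.8 ± 1.97 FPKM in siOXTR, against 39.4 ± 1.18 FPKM in siControl (log2 change 0.94, limma adjusted p = 7.46e-10). FNTB, its catalytic partner in farnesylation, fell to 1.22 ± 0.484 FPKM in siOXTR, against 3.08 ± 0.435 FPKM in siControl (log2 change -0.90, limma adjusted p = 1.30e-04). The subunits of this enzyme thus moved apart at the transcript level, though FNTB lay near the filter in siOXTR, at 1.76, 0.83 and 1.06 FPKM. CHURC1-FNTB, an entry for transcripts that join CHURC1 and FNTB, had a log2 change of -0.33. The sources do not state how reads shared with it were assigned.

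Genes of the desmosome, the junction to which keratins attach, and of the plakins that link filaments together were divided. Of 20 listed 19 were in the files and 14 were tested. EPPK1, the epiplakin gene, passed the filter through its siControl libraries alone and so had to differ, at 0.64, 0.60 and 0.59 FPKM in siOXTR and 1.13, 1.39 and 1.10 FPKM in siControl. Of the other 13 genes, 7 fell and 4 rose, with a median log2 change of -0.28. With EPPK1, 85.7% of the list passed in either direction, near the 82.5% of all genes tested. The desmosomal cadherin gene DSC3 was at 6.09, 6.55 and 6.33 FPKM in siOXTR and at 25.2, 25.0 and 25.5 FPKM in siControl, 3.99-fold lower (log2 change -1.84, SE 0.04, limma adjusted p = 2.89e-11). The cadherin gene DSG2 fell 2.34-fold (log2 change -1.20, limma adjusted p = 9.81e-11). JUP, which encodes the plaque protein plakoglobin, fell 1.88-fold (log2 change -0.84, limma adjusted p = 1.21e-08), and PKP4, a plakophilin gene, fell 1.64-fold (log2 change -0.69, limma adjusted p = 2.01e-08). Against these, DSP, which encodes desmoplakin, the protein that ties keratins to the desmosome, rose to 13.5 ± 0.488 FPKM in siOXTR, against 6.94 ± 0.276 FPKM in siControl (log2 change 0.87, limma adjusted p = 2.57e-08). The desmosomal membrane gene PERP rose by 0.55, the plectin gene PLEC by 0.20 and the periplakin gene PPL by 0.14 on the log2 scale. The PPL call is lost without siOXTR replicate 1 or siControl replicate 3.

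**Figure D5:**
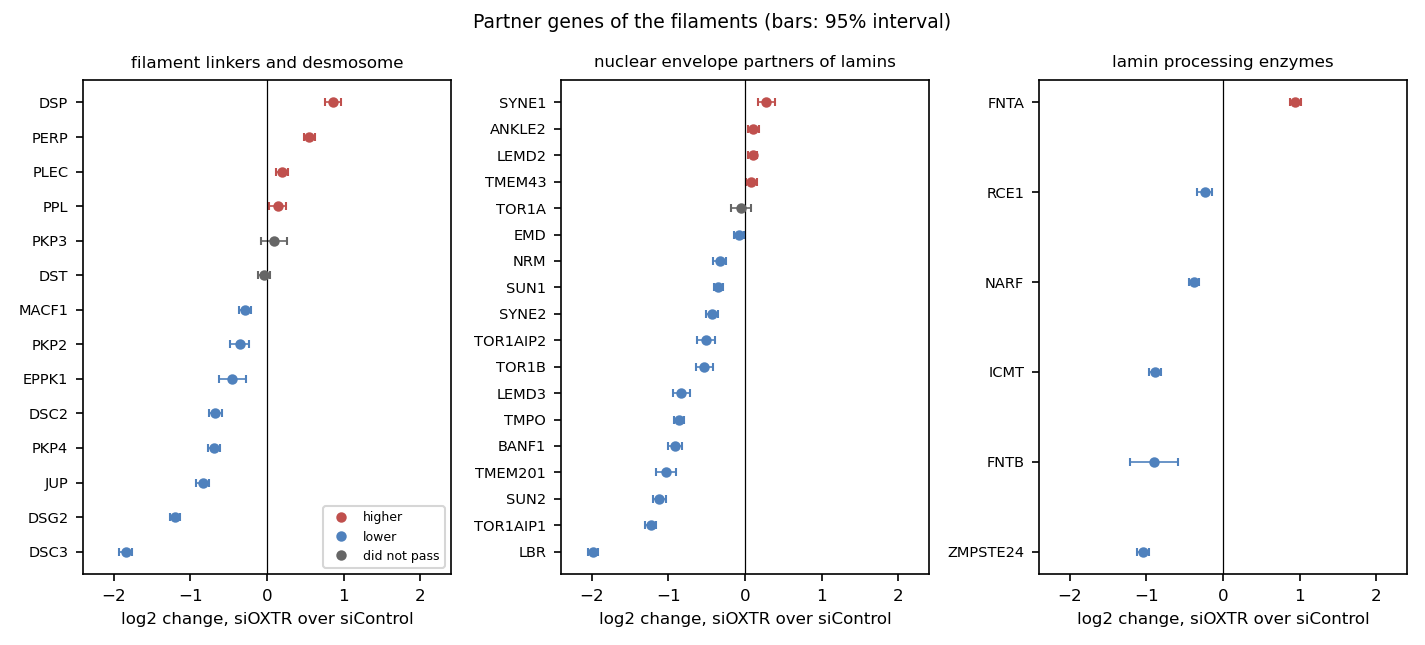
Log2 change (siOXTR over siControl) with its 95% interval for the tested genes of 3 lists: filament linkers and desmosome, nuclear envelope partners of lamins, and lamin processing enzymes. LBR at -1.98 and DSC3 at -1.84 lie farthest to the left, and FNTA at 0.94 and DSP at 0.87 farthest to the right.

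The genes whose profile over the 6 libraries was nearest to a filament gene were found by the root mean square difference of centred log2 values, among the other 6914 genes tested with a mean of at least 10 FPKM. For VIM they were LRRC59 (difference 0.0151), USP53 (0.0176) and PLEKHB2 (0.0190). For KRT18 they were RAB3GAP2 (difference 0.0106), ZFP91 (0.0175) and BRWD1 (0.0176). For LMNB1 they were RNF145 (difference 0.0196), PADI2 (0.0280) and ARL6IP1 (0.0390). The difference between the groups is part of these distances, so a fold near that of the filament gene follows from the choice. RNF145 was at 15.5 ± 0.591 FPKM in siOXTR and 46.6 ± 0.161 FPKM in siControl, close to the fold of LMNB1.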

How the data were processed

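RNA libraries of SNU449 cells (3 siOXTR, 3 siControl) were made by the BGISEQ-500 protocol, per the labels. The authors deposited FPKM values with 2 decimals for 17153 genes, per the file headers; no label or header names the aligner, counting tool, build, annotation, strand setting or filter. Depth is unknown and read counts are lacking, so no count model was used and the replicate SD stands for precision. Of 3713 low values, 20.2% lay within 0.1 of a whole multiple of the gene's lowest value, against 20% by chance. A gene's lowest value may itself stand for several reads, so this share cannot show whether the values move in steps of reads.

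Values were analysed as log2(FPKM + 1). The 11655 genes with at least 1 FPKM in at least 3 of 6 libraries were fitted with limma 3.58.1 (R 4.3.3; group as factor, empirical Bayes with a mean-variance trend, two-sided). Adjusted p-values are Benjamini-Hochberg over all genes tested, threshold 0.05; log2 changes understate low genes. Folds are ratios of mean FPKM. The fit was tested on simulated data. Ratios used exact permutation tests. Pseudogenes, strand overlaps and chromosomes came from GENCODE release 29, promoter windows from RefSeq. Apart from the promoter windows, placed in GRCh38.p14, no gene coordinates are given, since the authors' build is not named.

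The members and lists were chosen with earlier results of these data known. Named were OXTR, all members, and the 4 tested genes of lowest adjusted p per list with those against its direction. The 3 nearest profiles of VIM, KRT18 and LMNB1 were also named. EMD, FNTB, CHURC1-FNTB, KRT10, DES, PDGFRB, COL1A1, EPPK1 and SERPINA1 were added after their values were seen. Alternatives were pseudocounts of 0.1 and 0.01, quantile or median-ratio scaling, a filter at 5 FPKM or none, robust moderation, a replicate block and leaving out each library; leaving out list genes that passed the filter through 1 group alone was added after seeing the data.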

Additional observations from a re-analysis of the deposited data

How the results depend on the processing

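The calls and directions of VIM, KRT7, KRT8, KRT18, KRT80, LMNA, LMNB1 and LMNB2 held under all 14 other settings, with 5 of the filament genes higher and 3 lower each time. The smallest of these changes, LMNA, ranged from 0.16 to 0.24 on the log2 scale (highest adjusted p 7.50e-04), and LMNB1 from -1.61 to -1.48. NES did not pass under any setting and turned to 0.026 after quantile scaling. All genes called numbered between 8044 of 9393 tested (filter at 5 FPKM) and 10361 of 17117 tested (no filter). The number called was thus higher with no filter, but the share called was lower. KRT19 was tested only with no filter and did not pass. List medians moved with the filter and are no support for a direction where a gene passed through 1 group alone. The median of other keratins was 0.55 over the 5 tested, 0.08 over the 3 left without KRT20 and KRT34, and 0.01 with no filter. The median of other cytoplasmic filament genes was 0.31 over all 5 and -0.04 without PRPH. The median of linkers and desmosome was -0.32 over all 14, -0.28 without EPPK1 and -0.04 with no filter. For nuclear envelope partners the median was -0.47 over the 18 tested and -0.35 over 21 with no filter, with 12 lower and 6 higher. Under that setting, 5752 of all 17117 genes passed downward and 4609 upward. For lamin processing enzymes it was -0.63 over all 6 and -0.38 over the 5 left with the filter at 5 FPKM. The median of all genes was 0.003 after quantile scaling, against -0.06. Among the other genes named from the lists, EMD, TMEM43 and PPL lost their call and KRT10 gained one under the settings given with their values; the rest kept call and direction wherever they were tested. Ratios kept their direction under all 8 settings run for each. The replicate numbers are not known to pair the libraries: deviations of same-numbered libraries correlated at -0.01, -0.07 and 0.04. With the replicate number as a block, 9593 genes passed, against 9613 without it, and the block changed no call among the filament genes. Without read counts, differences in genes near 0 FPKM, such as KRT19, are not resolvable here.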
